A study of Mus musculus with 4 samples.

Results

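The enzymes that write and erase methylation at lysine 4 of histone H3 (H3K4) were followed in RNA from mouse zygotes, the fertilised eggs before their first division. Members were the 10 features of the deposited count table whose names equal Kmt2a, Kmt2b, Kmt2c, Kmt2d, Setd1a and Setd1b, the 6 methyltransferases, or Kdm1a, Kdm1b, Kdm5a and Kdm5b, the 4 demethylases. All 10 were found among 55291 features. The study is about what H3.3 supplied by the egg does to the parental genomes around the embryo's first, minor transcription. Its RNA samples were 4: zygotes injected with an H3.3 MO, their own control zygotes, zygotes injected with H3.3 S31A, and a separate control for these. The abbreviation MO is not written out in the labels. In embryology it is mostly short for morpholino, an antisense oligonucleotide. S31A is the usual notation for alanine in place of serine in the H3.3 protein. The sources used here do not give strain, age or what the control zygotes received.

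Each group was 1 sample, so no difference below has a replicate check. Each sample had 2 count columns, called libraries 1 and 2. Whether these are separate pools of embryos is not stated, so their spread may be technical. Library totals ran from 5661621 to 13233371 counts. The H3.3 gene H3f3b stood at 2.30 and 10.5 CPM (counts scaled to equal library size) in the MO injected libraries and 2199 and 1550 CPM in the MO control libraries. It stood at 2438 and 2749 CPM in the S31A injected libraries and 1453 and 1819 CPM in the S31A control libraries. H3f3a was at 8.04 and 52.4 CPM in the MO injected libraries and 462 and 586 CPM in their controls, and at 484 and 648 CPM in the S31A injected libraries and 657 and 563 CPM in theirs. All 12 oocyte and zygote markers were detected in every library, with summed levels of 6675 to 15041 CPM. Of 12 cumulus and granulosa cell markers, 1 to 3 were detected per library. The 12 summed to 46.7 to 166 CPM per library, most of it from the aromatase gene Cyp19a1, which was found in every library. Without Cyp19a1 the other cumulus markers summed to 23.5 CPM in S31A control library 1 and to 0 to 3.29 CPM in the other libraries. Amh, Fshr and Foxl2 were at 0. Of 8 markers of the 2-cell embryo, 3 to 7 were detected per library, with sums of 72.5 to 327 CPM. S31A injected library 2 held 7 of these, and each S31A control library 3. The part of these markers in the ratios below was not tested.

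H3K4 methylation marks active and poised chromatin. Trimethylation sits at promoters, and monomethylation at enhancers. The 6 methyltransferases each carry a catalytic SET domain and work in large complexes around a shared core of Wdr5, Rbbp5, Ash2l and Dpy30. The mouse egg is unusual in that it carries broad domains of H3K4 trimethylation away from promoters, which are removed after fertilisation. Kmt2b is the main writer of these domains in the growing oocyte, Kdm1b is needed there for DNA methylation imprints, maternal Kdm1a is needed for normal early cleavage, and Kdm5a and Kdm5b have been tied to loss of the broad domains around the 2-cell stage.

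The methyltransferases come in related pairs, which matters for reading their counts, because reads from one gene could in principle be placed on its relative. The stretches below are shown for that reason. They are 60 bases of coding sequence around the most conserved motif of the SET domain, found by translating GENCODE M21 transcripts, and capitals mark the 26 positions where all 6 genes have the same base. In GRCm38 (mm10) the Kmt2a stretch lies at chr9:44808067-44808126 on the minus strand in exon 36 of 36, and that of Kmt2b at chr7:30569326-30569385 on the minus strand in exon 37 of 37. The other stretches cross an intron. That of Kmt2c runs over chr5:25275700-25275922, minus strand, from exon 57 to 58 of 59. For Kmt2d it is chr15:98834788-98834930, minus strand, from exon 53 to 54 of 55. For Setd1a it is chr7:127799184-127799320, plus strand, from exon 18 to 19 of 19. For Setd1b it is chr5:123163664-123165847, plus strand, from exon 16 to 17 of 17.
Kmt2a: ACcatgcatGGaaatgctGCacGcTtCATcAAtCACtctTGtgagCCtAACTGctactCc
Kmt2b: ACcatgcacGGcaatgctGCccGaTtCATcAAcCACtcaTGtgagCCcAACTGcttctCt
Kmt2c: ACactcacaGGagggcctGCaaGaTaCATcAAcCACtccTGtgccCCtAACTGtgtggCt
Kmt2d: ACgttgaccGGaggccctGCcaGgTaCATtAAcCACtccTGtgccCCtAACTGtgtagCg
Setd1a: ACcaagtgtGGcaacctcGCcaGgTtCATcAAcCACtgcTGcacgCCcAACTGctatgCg
Setd1b: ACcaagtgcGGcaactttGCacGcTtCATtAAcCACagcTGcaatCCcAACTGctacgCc
Even here the closest pair, Kmt2a and Kmt2b, shared 51 of 60 bases, Kmt2c and Kmt2d 50, and Setd1a and Setd1b 48. Over whole transcripts, none of the 10 members shared a run of 50 bases with another member on either strand.

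Overlap with neighbouring genes was a larger limit for a few members. Setd1a, on chromosome 7 from 127776670 to 127800122, shared 51.8% of its exon bases with Gm49388, a protein-coding annotation on the same strand that had 0 counts in all libraries. The sources used here do not say how reads in shared exons were assigned, but with 0 counts none were credited to Gm49388. If such reads were left out for Setd1a as well, its level scaled by full gene length would be too low. The level of Setd1a and its place in the order of levels are therefore uncertain. Kdm1b, on chromosome 13 from 47043499 to 47085279, shared 9.19% of its exon bases with the opposite-strand gene Dek, and the strand setting of the counting was not given either. The shared part was 1.77% for Kdm5a, which meets Ccdc77, and 2.27% and 1.35% for Kmt2a and Kmt2c. Kmt2b, Kmt2d, Setd1b, Kdm1a and Kdm5b shared no exon base with another feature.

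Levels spanned the range from abundant to almost undetected, compared as TPM, which scales counts by gene length and by library, over the 8 libraries. Kdm1b, which removes mono- and dimethylation at H3K4, had the highest mean, 118 TPM, above 93.8% of the 20110 features detected in any library. Kdm1a, the demethylase of the CoREST repressor complex, averaged 57.7 TPM, and Kmt2c, a writer of enhancer monomethylation, 55.9 TPM. Setd1a averaged 19.2, Kmt2b 16.9, Setd1b 8.94 and Kmt2d 7.68 TPM. The remaining 3 members were scarce, with Kdm5a at 0.678 TPM, Kdm5b at 0.643 TPM and Kmt2a at 0.00215 TPM.

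**Figure D1:**
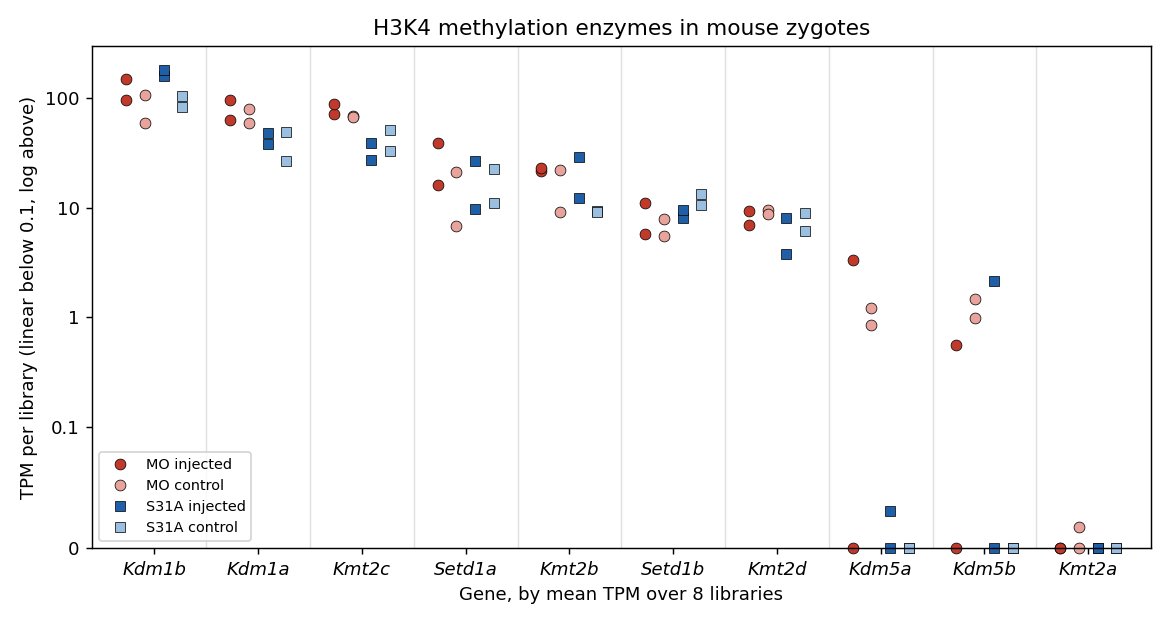
TPM of each member in each of the 8 libraries, with genes ordered by mean TPM along the horizontal axis and a vertical axis that is linear below 0.1 TPM and logarithmic above. Points are single libraries, 2 per sample. Kdm1b lies between 59.0 and 182 TPM, Kmt2d between 3.75 and 9.52 TPM, and Kdm5a, Kdm5b and Kmt2a each reach 0 in at least 4 libraries.

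Neighbours in this order were often not separated. Kdm1b lay above Kdm1a in 6 of 8 libraries, and Kdm1a above Kmt2c in 3 of 8. Kmt2c lay above Setd1a in all 8 libraries, although its lowest value, 27.5 TPM, was below the highest of Setd1a, 38.6 TPM. Setd1a was above Kmt2b in 3, Kmt2b above Setd1b in 6, and Setd1b above Kmt2d in 4 of 8 libraries. Between Kmt2d and the scarce members there was a gap, since the lowest value of Kmt2d, 3.75 TPM, lay above the highest of Kdm5a, 3.32 TPM, and of Kdm5b, 2.15 TPM. As each library was made from whole zygotes, fewer cells with a transcript and less transcript per cell cannot be told apart.

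Promoters are shown for the members at both ends of this order, Kdm1b and Kmt2a, as RefSeq gives them in GRCm38.p6, from 250 bases before to 50 after the annotated start. RefSeq entries were matched by symbol for 7 of the 10 members. Capitals mark CG dinucleotides. The Kdm1b window is chr13:47043249-47043548 on the plus strand and the Kmt2a window is chr9:44881240-44881539 on the minus strand.
Kdm1b: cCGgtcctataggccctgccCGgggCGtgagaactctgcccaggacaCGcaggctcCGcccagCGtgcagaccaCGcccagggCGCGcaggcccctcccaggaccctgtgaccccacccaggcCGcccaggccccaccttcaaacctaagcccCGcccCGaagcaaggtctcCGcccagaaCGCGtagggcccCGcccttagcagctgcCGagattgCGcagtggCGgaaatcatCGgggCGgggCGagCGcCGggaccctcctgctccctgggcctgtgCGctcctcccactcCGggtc
Kmt2a: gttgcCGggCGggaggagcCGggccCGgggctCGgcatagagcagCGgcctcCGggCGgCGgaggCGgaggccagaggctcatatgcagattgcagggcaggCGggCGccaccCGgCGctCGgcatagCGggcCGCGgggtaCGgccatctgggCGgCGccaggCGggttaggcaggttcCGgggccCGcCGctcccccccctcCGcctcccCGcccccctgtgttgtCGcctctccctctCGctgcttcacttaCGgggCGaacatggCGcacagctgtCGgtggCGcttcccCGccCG
Both were rich in CG. The Kdm1b window held 26 and the Kmt2a window 36, against a median of 7 over 32851 promoters. Of these promoters 83.1% had fewer CG than Kdm1b and 93.8% fewer than Kmt2a. Each window held the GC box letters GGGCGG, which include a CG, on at least 1 strand, as did 35.7% of all promoters, and neither held TATAAA, found in 13.6% on either strand. The highest and the lowest member were thus alike in these letters, and which start was used in the egg was not measured.

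Kmt2a, the gene rearranged in mixed lineage leukaemia, had 1 count in 81016390 over all libraries. That count was in MO control library 1, at 0.109 CPM. In the other 7 libraries it was at 0, and a count of 0 allows a level of up to 0.230 to 0.493 CPM depending on depth. No comparison of Kmt2a could be made.

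Kdm5a and Kdm5b, the demethylases of H3K4 trimethylation, were detected in 4 of 8 libraries each. Kdm5a stood at 19.0 and 0 CPM in the MO injected libraries and 6.52 and 4.44 CPM in the MO control libraries. It had 0 counts and 2 counts (0.214 CPM) in the S31A injected libraries and 0 counts in both S31A control libraries. Both MO control libraries therefore held Kdm5a while its high value after MO injection came from 1 library. Kdm5b stood at 3.75 and 0 CPM in the MO injected libraries and 9.13 and 5.92 CPM in the MO control libraries. In the S31A experiment it was at 15.5 and 0 CPM in the injected libraries and at 0 in both control libraries. The S31A injected value of Kdm5b thus came from library 1 alone, and only the MO control sample held either gene in both of its libraries.

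Such gaps were common at this level. Of genes at 5 to 20 CPM in the higher library of a sample, the other library had 0 counts for 21.8% in the MO injected, 8.21% in the MO control, 34.2% in the S31A injected and 33.6% in the S31A control sample. Summed over libraries, Kdm5b was 3.33-fold lower in the MO injected than in the MO control sample (49 against 120 counts, log2 ratio -1.73, 95% interval -2.29 to -1.29 for counting error), but it stayed under 10 CPM in both. Against 0 counts in the S31A control, Kdm5b was at least 63.8-fold higher in the S31A injected sample taking 3 counts as the floor of the summed control. These figures rest on counting error, and the part of gaps between libraries in them was not tested.

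After MO injection, set against the MO control, 8 of the 10 members reached 10 CPM in at least 1 of the samples. Of these, 2 were at least 2-fold higher in the injected sample, Setd1a and Kdm5a, and 0 were at least 2-fold lower. This tally depended on the filter, since Kdm5a passed it only through the injected sample, at 11.2 CPM summed against 5.52 CPM in the control, while Kdm5b, lower in the injected sample, did not pass. Of 8110 genes measured in the same way 11.3% were higher and 12.5% lower by this rule, 23.8% in all. Scaling by total counts alone gave 8.73% and 15.4%. The members' median log2 ratio was 0.56, against 0.03 for all measured genes. All 8 ratios were above 0, as were those of 4214 of the 8110 genes, but Kmt2d, at 0.02, was at -0.10 with total counts alone and -0.01 with DESeq2 size factors. Without MO injected library 1 the median was 0.12, 0 members were 2-fold higher, and Kdm1a, Setd1b and Kmt2d were below 0, at -0.12, -0.11 and -0.34.

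Setd1a, a writer of promoter trimethylation, stood at 106 and 44.1 CPM in the MO injected libraries and 54.9 and 17.1 CPM in the MO control libraries. The libraries overlapped, because library 2 of the injected sample lay below library 1 of the control. Summed, Setd1a was 2.09-fold higher (log2 ratio 1.07, interval 0.93 to 1.20). The log2 ratio was 0.12 without MO injected library 1, 0.60 without MO control library 2 and 2.27 without MO control library 1. Kdm5a, 2.02-fold higher (log2 ratio 1.01, interval 0.67 to 1.39), rested on MO injected library 1 as described, and without that library it was not measured. It stood at 0.82 without MO control library 2 and at 1.69 without MO injected library 2. With scaling by total counts alone neither gene reached 2-fold, at log2 ratios of 0.95 for Setd1a and 0.90 for Kdm5a.

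Of the 8 members, 2 had both injected libraries above both control libraries, and 0 had both below, compared with 19.2% of all measured genes above, 21.3% below and 40.5% on either side. Kmt2b stood at 83.7 and 87.8 CPM in the MO injected libraries and 79.9 and 31.9 CPM in the MO control libraries. Its separation was narrow, since MO control library 1 lay close below the injected libraries, and the log2 ratio was 0.54 (interval 0.43 to 0.66). Kmt2c, the most abundant methyltransferase, stood at 585 and 712 CPM in the MO injected libraries and 532 and 504 CPM in the MO control libraries. All 4 values of Kmt2c lay close together and its log2 ratio was 0.35 (interval 0.31 to 0.39), or 1.27-fold.

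The other 4 members overlapped between the MO samples. Setd1b, the close relative of Setd1a, stood at 54.3 and 27.4 CPM in the injected and 25.2 and 34.7 CPM in the control libraries. Its log2 ratio was 0.63 (interval 0.47 to 0.80). Kdm1b stood at 215 and 326 CPM in the injected and 223 and 119 CPM in the control libraries (log2 ratio 0.58, interval 0.51 to 0.64). Without MO control library 1, Kdm1b and Kmt2b passed 2-fold, with log2 ratios of 1.17 and 1.46. Kdm1a stood at 203 and 131 CPM in the injected and 156 and 113 CPM in the control libraries (log2 ratio 0.37, interval 0.30 to 0.45). Kmt2d, the close relative of Kmt2c, was the steadiest, at 75.1 and 55.2 CPM in the injected and 71.9 and 63.8 CPM in the control libraries. In the same libraries the share of counts on mitochondrially encoded genes was 3.47% and 4.99% in the injected and 5.55% and 5.23% in the control sample, and its part in these ratios was not tested.

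**Figure D2:**
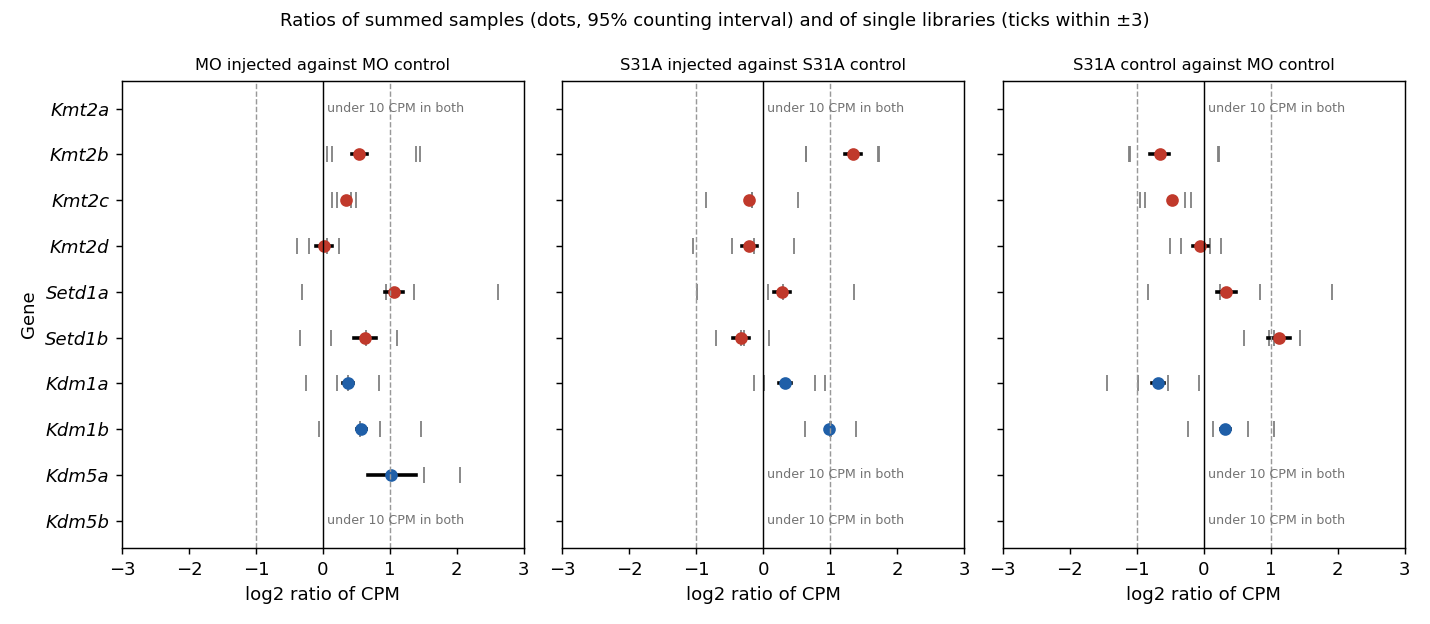
Log2 ratio of CPM for each member, in panels for MO injected over MO control, S31A injected over S31A control, and S31A control over MO control. Dots are ratios of summed samples with 95% counting intervals (red for methyltransferases, blue for demethylases), grey ticks are the 4 ratios of single libraries where they lie within ±3, and dashed lines mark 2-fold. The ticks of Setd1a run from -0.31 to 2.62 in the MO comparison, far beyond its counting interval of 0.93 to 1.20. The Kdm5a ratios of MO injected library 2, at -5.08 and -4.55, lie outside the range drawn.

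After S31A injection, set against its own control, 7 members were measured, without Kdm5a. Only Kmt2b was at least 2-fold higher in the injected sample and 0 were at least 2-fold lower. Of 8191 measured genes 14.1% were higher and 16.1% lower by this rule, 30.2% in all. The members' median log2 ratio was 0.28, against 0.02 for all measured genes. Leaving out S31A control library 2 gave 0.91 and leaving out S31A control library 1 gave -0.11, so its sign depended on 1 library.

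Kmt2b, the writer of the egg's broad trimethylation domains, stood at 122 and 57.7 CPM in the S31A injected libraries and 36.9 and 37.2 CPM in the S31A control libraries. Both injected libraries lay above both controls, and the control libraries were nearly equal. Kmt2b was 2.53-fold higher (log2 ratio 1.34, interval 1.22 to 1.46). The difference stayed in the same direction but fell short of 2-fold without S31A injected library 1, at a log2 ratio of 0.59.

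Kdm1b stood at 380 and 490 CPM in the S31A injected libraries and 188 and 246 CPM in the S31A control libraries. These did not overlap either, and the smallest ratio between single libraries was 0.63 on the log2 scale and the largest 1.38. The log2 ratio of the sums was 0.98 (interval 0.93 to 1.03), just under 2-fold. It was 1.24 without S31A control library 2, 1.12 without S31A injected library 1 and 0.77 without S31A injected library 2. Thus 2 of 7 members had both injected libraries above both controls, and 0 had both below, where 19.8% of all measured genes were above, 19.8% below and 39.5% on either side.

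The other 5 members overlapped between the S31A samples. Kmt2c stood at 243 and 391 CPM in the injected and 274 and 440 CPM in the control libraries, with a log2 ratio of -0.21 (interval -0.26 to -0.17). Kmt2d stood at 69.5 and 36.6 CPM in the injected and 50.5 and 76.4 CPM in the control libraries, with a log2 ratio of -0.21 (interval -0.33 to -0.10). Neither sign held when a library was left out. Without S31A control library 2 Kmt2c was at 0.22 and Kmt2d at 0.17. Without S31A injected library 1 Kmt2c was at 0.07, and without S31A injected library 2 Kmt2d was at 0.09. Setd1a had 79.5 and 32.5 CPM in the injected and 30.8 and 65.0 CPM in the control libraries, and Setd1b 41.9 and 56.0 CPM in the injected and 52.6 and 68.4 CPM in the control libraries. Their log2 ratios were 0.28 and -0.33, and that of Setd1a was -0.62 without S31A injected library 1, -0.11 without S31A control library 1 and 0.97 without S31A control library 2. Kdm1a stood at 108 and 97.6 CPM in the injected and 57.1 and 108 CPM in the control libraries, with a log2 ratio of 0.32 (interval 0.23 to 0.41), and leaving out S31A control library 1 or 2 gave -0.03 or 0.91. Mitochondrially encoded genes took 7.13% and 9.59% of counts in the injected and 9.65% and 10.4% in the control libraries, and oocyte and zygote markers summed to 15041 and 12159 CPM in the injected and 10528 and 10780 CPM in the control libraries. Their part in the ratios was not tested.

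**Figure D3:**
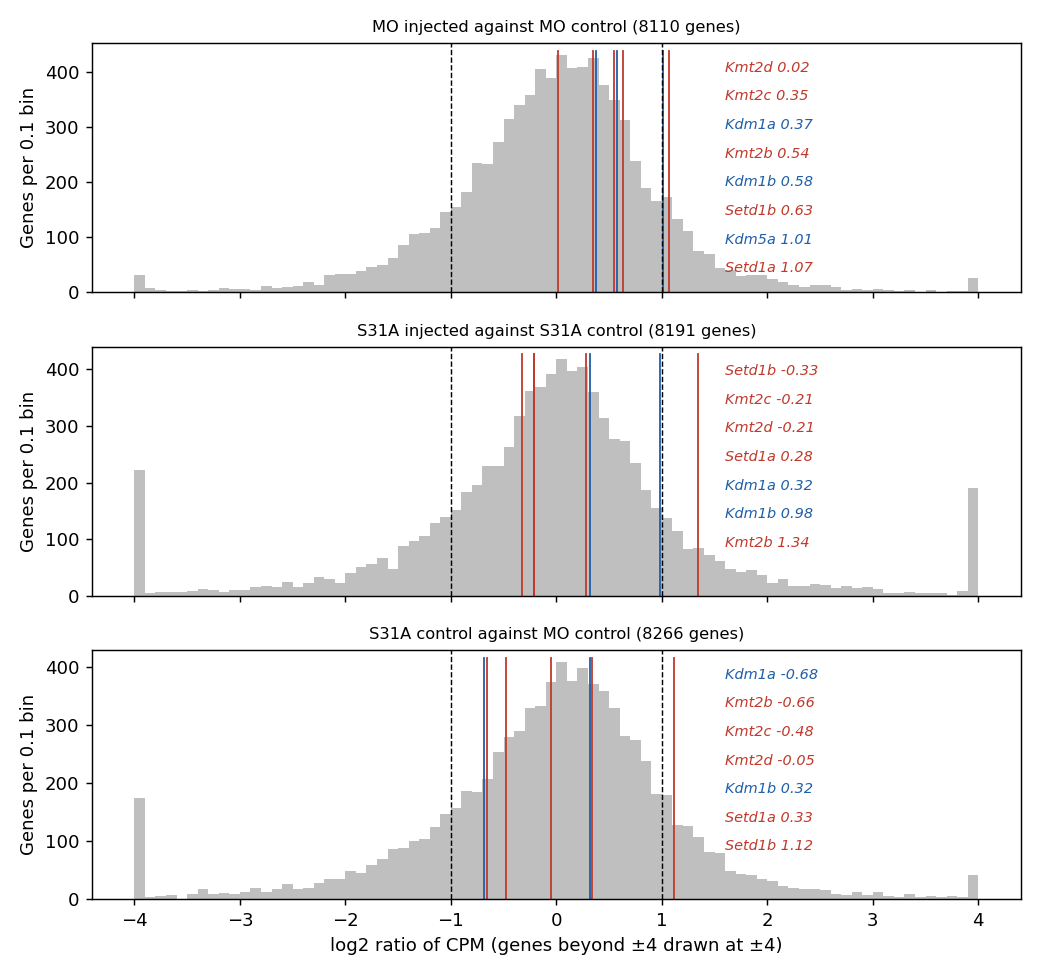
Distribution of log2 ratios over all measured genes in each comparison (grey bars, genes per bin of 0.1, with genes beyond ±4 drawn at ±4), with the measured members as lines (red for methyltransferases, blue for demethylases) and 2-fold marked by dashed lines. In the MO comparison the members lie between 0.02 and 1.07, in the S31A comparison between -0.33 and 1.34, and between the controls between -0.68 and 1.12.

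A yardstick came from the S31A control set against the MO control, which are both labelled as controls. Here 1 of 7 measured members, Setd1b, was at least 2-fold higher in the S31A control and 0 were lower, where 13.6% of 8266 measured genes were higher and 16.2% lower, 29.8% in all. Setd1b stood at 52.6 and 68.4 CPM in the S31A control libraries and 25.2 and 34.7 CPM in the MO control libraries (log2 ratio 1.12, interval 0.97 to 1.28). These did not overlap, though the log2 ratio was 0.87 without S31A control library 2 and 0.85 without MO control library 1. Without the same MO library Setd1a passed 2-fold, at 1.54. Kmt2c and Kdm1a lay lower in both S31A control libraries, with log2 ratios of -0.48 and -0.68, so 1 of 7 members was higher and 2 lower without overlap, compared with 21.2% and 25.2% of all measured genes, 46.4% in all. Without S31A control library 2 Kdm1a was more than 2-fold lower, at -1.27, and without MO control library 2 Kmt2b was, at -1.05. The control samples therefore differed for these genes by amounts like those seen between injected and control zygotes. Kdm5a and Kdm5b were under 10 CPM in both controls and had 0 counts in the S31A control. Taking 3 counts as the floor of the summed S31A control, they were at least 40.3-fold and 55.6-fold lower than in the MO control. Despite larger totals, fewer genes were detected in the S31A control libraries, 11372 and 11768, than in the MO control libraries, 15156 and 14895. The part of this difference in these bounds was not tested.

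Libraries of the same sample also differed. Setd1a was more than 2-fold apart between libraries 1 and 2 in all 4 samples, and Kmt2b in the S31A injected and MO control samples. Among all measured genes this held for 33.7% in the MO injected, 19.6% in the MO control, 33.3% in the S31A injected and 32.9% in the S31A control sample. Kmt2c, Kmt2d, Setd1b, Kdm1a and Kdm1b were less than 2-fold apart in each sample.

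The quasi-likelihood test of edgeR was run on the 8 libraries, where its p reflects only how libraries of a sample vary. By it 0 of 8 tested members passed a Benjamini-Hochberg adjusted p of 0.05 for MO or for S31A. Of 8981 genes 0.0334% and 0.0445% passed. For MO the edgeR adjusted p was 1 for each member, with 0 members under 0.05 before adjustment, as were 4.23% of genes. For S31A the edgeR adjusted p ran from 0.56 to 0.982. Kdm1b was the 1 of 8 members under 0.05 before adjustment, as were 8.26% of genes, with a log2 fold change of 0.99 in that model. DESeq2 passed 0 members in either comparison, and 0.724% of genes for MO and 4.5% for S31A.

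The S31A log2 ratio minus the MO log2 ratio asks whether a member differed between the experiments. Over the 7 members measured in both it ran from -0.96 for Setd1b to 0.80 for Kmt2b, and was -0.05 for Kdm1a and 0.40 for Kdm1b. In edgeR's model over the libraries 0 members passed for this difference with an adjusted p of at least 0.972, where 0.0334% of genes passed. Before adjustment 0 members and 6.47% of genes were under 0.05. A p that misses the threshold does not show that the experiments acted alike. For Kmt2b and Kdm1b the ratios were above 0 in both experiments, also without any 1 library. For Setd1b and Kmt2c they were below 0 in the S31A and above 0 in the MO experiment. These opposite signs depended on single libraries, as Kmt2c with S31A was at 0.22 without S31A control library 2 and Setd1b with MO at -0.11 without MO injected library 1.

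Seen as classes, and chosen after the values were seen, the 4 demethylases summed to 198 and 212 TPM in the MO injected libraries and 189 and 120 TPM in the MO control libraries. They summed to 209 and 221 TPM in the S31A injected libraries and 110 and 154 TPM in the S31A control libraries. Kdm1b made up 49% to 82.6% of this sum in each library. The 6 methyltransferases summed to 152 and 140 TPM in the MO injected and 127 and 100.3 TPM in the MO control libraries, and to 99.6 and 74.6 TPM in the S31A injected and 70.1 and 105 TPM in the S31A control libraries. Injected libraries lay above controls for the demethylases in both experiments and for the methyltransferases in the MO experiment only, while the S31A methyltransferase sums overlapped, a difference that was not tested.

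By the profile over libraries, the genes most like Kdm1b among 8981 genes were Snapc1, Glud-ps and Oat. Their centred log2 CPM differed from that of Kdm1b by a root mean square of 0.24, 0.247 and 0.251 over the 8 libraries. Snapc1 encodes a subunit of a complex that binds promoters of small nuclear RNA genes, and Oat encodes ornithine aminotransferase.

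A list of 53 other genes of the pathway gave the members' surroundings. In the MO comparison 43 were measured, of which 6 were at least 2-fold higher and 5 lower in the injected sample, with a median log2 ratio of 0.04. In the S31A comparison 41 were measured, of which 7 were higher and 6 lower, with a median of 0.02. These shares lay near those of all measured genes. The 4 shared core subunits of the methyltransferase complexes were measured in both comparisons, and 0 were 2-fold apart in either. Wdr5, the core subunit that binds the histone tail and the enzymes, came nearest, at 138 and 109 CPM in the S31A injected and 308 and 195 CPM in the S31A control libraries (log2 ratio -0.99). Of the 12 subunits particular to certain complexes 11 were measured, and 1 was lower in each comparison. With MO this was Hcfc2, at a log2 ratio of -1.39 with overlapping libraries. Men1, menin of the Kmt2a and Kmt2b complexes, was 6.35-fold lower with S31A (log2 ratio -2.67). It stood at 6.48 and 0 CPM in the S31A injected and 22.0 and 25.0 CPM in the S31A control libraries. Over the alternatives where Men1 was measured, this ratio ran from -7.69 to -1.87. The -7.69, without S31A injected library 1, rests on 0 counts in library 2, a kind of gap common at this level.

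Among 11 partners of the demethylases, 7 were measured with S31A, 5 of them higher by 2-fold or more and 1 lower, where all measured genes gave 14.1% and 16.1%. Of those 5, Hdac2, Zmym2 and Glyr1 were under 2-fold without 1 library. Among 9 measured with MO, 3 were higher and 0 lower, where all measured genes gave 11.3% and 12.5%. All 3 passed the filter only through the injected sample. In the MO control sample Rcor2 summed to 1.52, Rcor3 to 3.93 and Hmg20b to 7.30 CPM. The list was chosen with results of these data known, and its share was not tested. Rcor2, a CoREST scaffold that ties Kdm1a to histone deacetylases, was higher in both experiments. It stood at 17.5 and 7.64 CPM in the MO injected and 1.85 and 1.15 CPM in the MO control libraries (log2 ratio 3.07, interval 2.55 to 3.81). In the S31A experiment Rcor2 stood at 13.5 and 6.21 CPM in the injected and 1.12 and 0.967 CPM in the control libraries (log2 ratio 3.19, interval 2.68 to 3.99). Injected and control libraries did not overlap in either. Rcor2 passed the filter only through the injected samples. It was not measured without library 1 of the injected sample or at a filter of 50 CPM in either experiment, nor with total counts alone in the S31A experiment.

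Rcor1, the main CoREST scaffold, stood at 127 and 70.9 CPM in the S31A injected and 33.4 and 13.7 CPM in the S31A control libraries (log2 ratio 2.13, and 1.56 without S31A injected library 1 and 2.92 without S31A control library 1). Glyr1, the cofactor that binds Kdm1b, stood at 146 and 86.6 CPM in the S31A injected and 47.7 and 56.1 CPM in the S31A control libraries (log2 ratio 1.20). Both lay higher in the S31A injected libraries, as Kdm1b did, while the libraries of Kdm1a overlapped there, at 0.32. With MO, Glyr1 lay below both controls, at -0.37, and Kdm1b was at 0.58 with overlapping libraries. The deacetylase Hdac2 and the CoREST-associated Zmym2 had log2 ratios of 1.06 and 1.09 with S31A. Without S31A injected library 1 Glyr1 was at 0.69 and Hdac2 at 0.61, and without S31A control library 2 Hdac2 was at 0.75 and Zmym2 at 0.49. Zmym2 was at 2.22 without S31A control library 1. With total counts alone Hdac2 was at 0.96 and Zmym2 at 0.99. Rcor3 was 3.85-fold higher with MO, at a log2 ratio of 1.95, which was 0.96 without MO control library 1 and 3.39 without MO control library 2. Hmg20b, another CoREST-associated protein, was higher with MO, at 1.12, and lower with S31A, at -1.90. The MO value of Hmg20b was 0.65 without MO injected library 1 and 0.99 without MO control library 2. The controls differed too for these genes. Set against the MO control, the S31A control had log2 ratios of -2.04 for Rcor1, -1.11 for Glyr1 and 1.58 for Hmg20b.

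Among 15 readers of H3K4 methylation 14 were measured in each comparison. With MO 3 were higher and 4 lower, where 23.8% of all measured genes were 2-fold apart. With S31A 1 was higher and 3 lower, where 30.2% of all measured genes were. Phf13 and Ing1, proteins with a PHD finger that binds trimethylated H3K4, had log2 ratios of 1.48 and 1.22 with MO, and Pygo2, a Wnt coactivator with a PHD finger, 1.25. Ing1 was 0.83 without MO injected library 1 and 0.86 without MO control library 1, and Pygo2 0.75 and 0.73 without the same libraries. The remodeller Chd1, the demethylase Phf2 and Ing2 were lower with MO, at -1.75, -1.83 and -1.69, and Phf2 was not measured without MO control library 1. Ing2 was at -1.12 without MO injected library 1 and at -2.49 without MO injected library 2. Chd1 was at -2.72 without MO injected library 2 and at -1.11 without MO injected library 1. With S31A, Dido1 was higher, at 2.47, while Ing1 and Ing5 were lower, at -1.10 and -1.53, and Ing1 was at -0.998 without S31A control library 1. Dido1 was at 3.45 without S31A control library 2 and at 1.96 without S31A control library 1. The libraries of these genes did not overlap in the comparison named. The remaining 2-fold differences were in Sgf29 with MO, at -1.32, and Ing3 with S31A, at -1.88, both with overlapping libraries. Between the controls Dido1 stood at -1.81 and Phf13 at 1.04. Spin1, a reader abundant in the egg, was at 9202 and 10795 CPM in the MO injected and 9498 and 7151 CPM in the MO control libraries, with a log2 ratio of 0.26, and at 0.02 with S31A. Of the other writers and erasers 5 of 11 were measured, 0 were 2-fold apart with MO, and with S31A Kmt2e was higher and Ash1l lower, both with overlapping libraries.

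**Figure D4:**
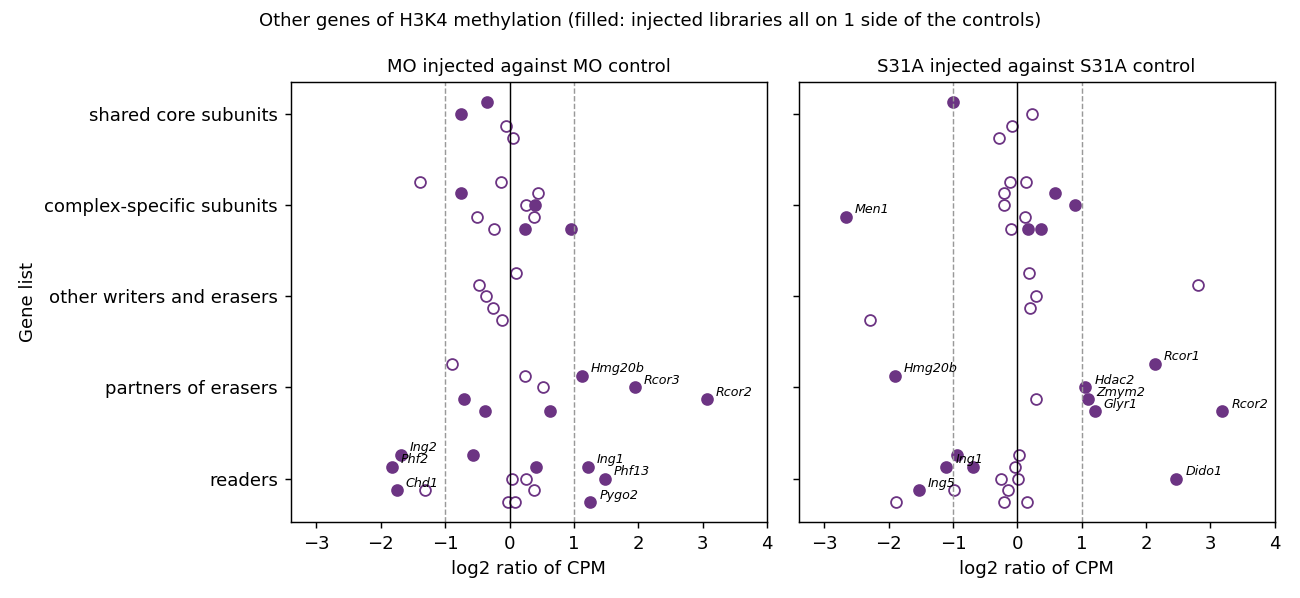
Log2 ratio of CPM of the measured genes of the pathway list in the MO and the S31A comparison, by list, with dashed lines at 2-fold. Filled circles are genes whose injected libraries all lay on 1 side of the control libraries, and names mark the filled ones at least 2-fold apart. Rcor2 stands at 3.07 with MO and 3.19 with S31A, the rightmost point in both panels.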

How the data were processed

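RNA was sequenced from mouse zygotes, per the labels' protocols as amplified cDNA from total RNA. The tools named, per the submitters' processing notes, were Bowtie2, featureCounts, FastQC and DESeq2, and the build mm10. The sources used here give no versions, annotation, strand setting or handling of multiply matching reads, and Bowtie2 does not split reads over introns. Deposited values are unnormalised counts, with gene lengths per the file headers. The steps were tested on simulated data.

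Members and lists were chosen with earlier results of these data known. The libraries of each sample were added together and scaled by TMM (edgeR 4.0.16, R 4.3.3). Log2 ratios of CPM used a prior count of 2, and a gene counted as measured when either sample compared reached 10 CPM. TPM used the deposited lengths and is not TMM-scaled. Intervals are exact 95% Clopper-Pearson intervals of shares of counts, and PCR copies cannot be told from molecules, so these intervals, and floors, reflect counting error alone. The library-level test used edgeR with 1 dispersion fit for all 4 samples, and DESeq2 1.42.0 as an alternative. Its p-values reflect how libraries vary, not samples. Named pathway genes were those at least 2-fold apart with MO or S31A without overlap of libraries. Wdr5, Spin1, Kmt2e, Ash1l, Hcfc2, Sgf29 and Ing3 are outside this rule and were picked with their values in view. Of the named pathway genes, Rcor2, Rcor3 and Hmg20b with MO passed the filter only through the injected sample, as did Rcor2 and Dido1 with S31A. Ing2, Phf2 and Chd1 with MO, and Men1, Hmg20b and Ing5 with S31A, passed only through the control sample. Other alternatives were total counts or DESeq2 size factors for scaling, a filter of 1 or 50 CPM or none, a prior count of 0.5, and leaving out each library. Of the feature symbols 96.4% were in GENCODE M21, where all 10 members had the same start and end.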

Additional observations from a re-analysis of the deposited data

Results flagged for a closer look

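For 3 genes of the pathway list, both injected libraries lay on 1 side of both controls in the MO experiment and on the other side in the S31A experiment. The S31A log2 ratio minus the MO log2 ratio was -3.02 for Hmg20b (S31A -1.90, MO 1.12), -2.32 for Ing1 (S31A -1.10, MO 1.22) and 1.58 for Glyr1 (S31A 1.20, MO -0.37). The difference was not tested for these genes. Among 7320 genes measured in both experiments 6.52% showed opposite sides. Of the 53 list genes 43 were measured with MO and 41 with S31A, so 3 genes lay near this share. For Hmg20b and Glyr1 the controls also differed from each other, as given above. None of the 10 members lay on opposite sides in the MO and the S31A experiment.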

How the results depend on the processing

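Libraries left out in turn gave 0 to 4 members at least 2-fold higher with MO, and a member median of 0.12 to 0.92. With S31A they gave 1 to 2 members and a median of -0.11 to 0.91, and between the controls 0 to 1 higher, 0 to 1 lower and a median of -0.43 to 0.26. For MO the number of higher members was 0 with total counts alone, 1 with DESeq2 size factors and 1 at a filter of 50 CPM. With a filter of 1 CPM or none, Kdm5b added 1 lower member for MO and made 2 higher for S31A, and Kdm5a and Kdm5b made 2 lower between the controls, where the median was -0.57 without a filter, because these genes enter only there. Total counts alone moved the median of all genes by -0.12 for MO and -0.11 for S31A. Over libraries, 3 genes passed edgeR for MO and 4 for S31A, and DESeq2 passed 65 and 404. Leaving out a library, an alternative added after seeing the data, gave 1 to 5 genes for MO, 0 to 2 for S31A and 1 to 4 for the difference of ratios. With the library number as a replicate block 3 genes passed for each of MO, S31A and the difference, and 0 members. The labels give no replicate numbers, so the block rests on column numbers alone. No ratio of a member or named gene that was at least 2-fold apart reversed in the alternatives where it was measured. Kdm5a with MO was not measured without MO injected library 1, so its direction could not be checked there. MO injected library 2 had 0 counts of Kdm5a, at log2 ratios of -5.08 and -4.55 against the MO control libraries. Under 10 CPM, gaps between libraries limited Kdm5a, Kdm5b and Kmt2a.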
